A study of Homo sapiens with 4 samples.

Results

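VNN1, XDH, SCG5, CA11, GPA33 and ASGR1 are 6 genes, mostly of cell surface or secreted proteins, whose array signals were lower after both treatments of the experiment than after both negative controls. They were picked for these differences, so the differences are given as a description and carry no test. The members were all the probes whose accession belonged to a listed gene, which gave 6 probes, 1 per gene, among 34127 probes, of which 25419 could be given 1 of 19480 gene names. All 6 were well above background on all 4 arrays by the flag of the scanner software, as were 21239 probes in total. By common knowledge XDH is chiefly an enzyme of the cytosol, so the description as surface or secreted is meant for the other 5.

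The cells were HuCCT1, an established line of human intrahepatic cholangiocarcinoma, a cancer of the bile duct epithelium inside the liver. They were transfected with 30 nM of 1 of 4 reagents: Pre-miR-376c, a mimic of mature miR-376c-3p (array labelled miR-376c), an siRNA against GRB2 (siGRB2, named siGRB2-2 in the methods), a Pre-miR negative control (miControl) or a non-silencing siRNA (siControl). After 24 h all 4 cultures, controls included, received 5 ng/ml of epidermal growth factor (EGF) in 0.1% serum for 24 h, and total RNA was hybridized in 1 colour. Each condition had 1 array and no replicate, and no culture without EGF or without transfection was analysed here. No test between conditions could therefore be made. The study asked how transcripts of EGF-treated cells differ when miR-376c is supplied or when its target GRB2, the adaptor that couples activated EGF receptors to RAS, is silenced.

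A microRNA pairs with messages mainly through its seed, so the sequence supplied to the cells is shown here with the seed in capitals, which are bases 2 to 8 counted from the 5′ end. It was taken from RefSeq (GRCh38.p14, chr14:101039732-101039752, + strand). Matches of the seed to the transcripts of the 6 genes were not analysed here.
hsa-miR-376c-3p: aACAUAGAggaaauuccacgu

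The members have unlike roles. VNN1, vanin 1, is a pantetheinase tethered to the outer membrane leaflet that splits pantetheine into vitamin B5 and cysteamine, and XDH, xanthine dehydrogenase, oxidizes hypoxanthine to xanthine and xanthine to urate at the end of purine breakdown. SCG5, also called 7B2, is a secreted chaperone of the prohormone convertase PCSK2, and CA11 is a carbonic anhydrase-related protein that lacks the catalytic activity of its family. GPA33 is an immunoglobulin-like surface antigen best known from intestinal epithelium, and ASGR1 is the major subunit of the asialoglycoprotein receptor, by which hepatocytes take up glycoproteins that have lost their sialic acid.

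Levels are given as the log2 processed signal minus the 75th percentile of the array, so that 0 is the level of the 75th percentile, and a difference of -1 is a 2-fold lower level. The 75th percentile lay at a signal of 2065 with miR-376c, 1995 with siGRB2, 2689 with miControl and 1719 with siControl, and 21811 to 24119 probes per array were well above background. The siControl array stood apart: against miControl, 6.1% of probes were at least 2-fold lower and 3.07% at least 2-fold higher, more than for either treatment against miControl. Which direction prevailed there turned on the scaling: among the probes on all arrays 1145 were lower and 504 higher, with quantile normalization 699 and 634, and with a median shift 497 and 1472. For this reason each treatment was set against both controls. GRB2 had log2 levels of 0.62 with miControl, -0.10 with siControl, 0.07 with miR-376c and -0.65 with siGRB2, so it was lowest on the array labelled siGRB2, but with miR-376c it was below miControl and 0.17 above siControl. Of the biliary markers, KRT7, KRT8, KRT18, KRT19, EPCAM, SOX9, MUC1 and CDH1 were well above background on every array and SPP1 on none.

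VNN1 was the member with the widest drop from miControl. Its signal (probe A_33_P3399571) was 5985 with miControl, 2172 with siControl, 1475 with miR-376c and 1148 with siGRB2, which are log2 levels of 1.15, 0.34, -0.49 and -0.80. Both treated arrays lay below both controls, but the controls themselves differed by 0.82, as much as miR-376c and siControl did. The level with miR-376c was 32.1% of miControl and 56.5% of siControl (log2 differences of -1.64 and -0.82, scanner error 0.20 each). With siGRB2 it was 25.9% of miControl and 45.6% of siControl (-1.95 and -1.13). Here and below, the scanner error is the error that the software gave for the signals of both arrays, propagated to the difference. It covers the reading of the spot and not the variation between cultures, and a lower level in a culture can be fewer cells making the transcript or less of it per cell, which bulk RNA cannot tell apart.

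XDH had nearly the same level on both treated arrays. Its signal (probe A_33_P3270863) was 1432 with miControl, 742 with siControl, 452 with miR-376c and 432 with siGRB2, or log2 levels of -0.91, -1.21, -2.19 and -2.21. The controls were apart by 0.30 and the treated arrays by 0.02, neither more than 2 scanner errors, and the groups did not overlap. XDH was at 41.1% of miControl with miR-376c and at 40.6% with siGRB2. Against siControl the shares were 50.7% and 50.1%, which put both differences (-0.98 and -0.996) just short of the 2-fold limit.

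SCG5 was the single member at least 2-fold lower in all 4 comparisons of a treatment with a control, an outcome shared by 0.0402% of the probes compared. Signals of its probe (A_23_P62081) were 484 with miControl, 282 with siControl, 161 with miR-376c and 140 with siGRB2, and the log2 levels were -2.47, -2.61, -3.68 and -3.83. The arrays formed pairs, with controls 0.14 apart, treated arrays 0.15 apart and 1.07 between the pairs. The log2 differences were -1.20 for miR-376c against miControl, -1.22 for siGRB2 against siControl, -1.07 for miR-376c against siControl and -1.36 for siGRB2 against miControl, each with a scanner error of 0.21.

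CA11 was the member in which the treatments differed most from each other. Its signal (probe A_23_P78782) was 186 with miControl, 208 with siControl, 60.7 with miR-376c and 110 with siGRB2, and the log2 levels were -3.86, -3.05, -5.09 and -4.18. The miR-376c array was lowest by a clear margin, whereas siGRB2 and miControl differed by 0.33 with a scanner error of 0.22. With miR-376c the level was 42.6% of miControl and 24.3% of siControl, the lowest share of any member in any of the 4 comparisons. With siGRB2 it was 79.8% of miControl and 45.6% of siControl, so that a 2-fold lower level was seen only against siControl. The siGRB2 array exceeded the miR-376c array by 0.91 (scanner error 0.25).

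GPA33 was the member nearest to the background. Its signals (probe A_24_P319374) were 96.9 with miControl, 87.4 with siControl, 31.0 with miR-376c and 52.4 with siGRB2, and its log2 levels were -4.79, -4.30, -6.06 and -5.25. On the miR-376c array it stood 1.27-fold above the lowest signal that was well above background there, with a scanner error of 0.27 on the log2 level. The level with miR-376c was 41.7% of miControl and 29.5% of siControl. With siGRB2 it was 72.9% of miControl, a difference within 2 scanner errors (-0.46, error 0.25), and 51.7% of siControl (-0.95). The control arrays ranked differently by raw signal and by level for GPA33, and also for ASGR1, as the levels are relative to a 75th percentile that was lower on the siControl array.

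ASGR1 was measured by 10 spots of its probe (A_23_P118722), of which 9 were used on the miR-376c array and all on the others. Its mean signal was 339 with miControl, 312 with siControl, 123 with miR-376c and 156 with siGRB2, and its log2 levels were -2.99, -2.46, -4.07 and -3.68. The lowest spot of either control, at -3.10, was above the highest treated spot, at -3.54, so no spot of the groups overlapped. Such spots are repeats on 1 array and not repeats of the experiment. ASGR1 was at 47.3% of miControl and 32.8% of siControl with miR-376c (-1.08 and -1.61), and at 61.9% and 42.9% with siGRB2 (-0.69 and -1.22).

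Counted over the members, all 6 were at least 2-fold lower with miR-376c than with miControl, a comparison in which 1.47% of the 24384 probes compared passed the same limit. With siGRB2 against siControl 4 passed (VNN1, SCG5, CA11 and ASGR1) where 3.11% of the probes compared did, and all 6 passed with quantile normalization, a median shift or the deposited log2 values. Across the kinds of control, 4 passed with miR-376c against siControl (SCG5, CA11, GPA33 and ASGR1; 3.35% of probes) and 3 with siGRB2 against miControl (VNN1, XDH and SCG5; 1.01%). These shares are given for scale and support nothing, as the genes were picked for these very differences. All 6 were below both controls on both treated arrays, as were 13.6% of the probes well above background on all arrays, while 21.3% had the opposite order. The median difference of the members was -1.25, -1.13, -1.34 and -0.996 in the 4 comparisons in the order just given, against -0.03, 0.15, 0.09 and 0.04 for all probes. The comparisons share arrays and are not separate pieces of evidence. The differences of siGRB2 turned on the background correction: with normexp those of XDH, SCG5, CA11, GPA33 and ASGR1 against both controls became positive (0.62 to 3.44), as the median of all probes rose to 1.03 against siControl and 0.93 against miControl, and those of VNN1 and of all members with miR-376c stayed negative. Without the 7 spots of high local background, which lay on the siGRB2 array only, normexp left 23 of the 24 differences negative.

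Near the limit, SCG5 (-1.07, miR-376c against siControl) and ASGR1 (-1.08, miR-376c against miControl) were the closest inside it, and XDH (-0.996 and -0.98 against siControl) and GPA33 (-0.95, siGRB2 against siControl) the closest outside. Each of these lay within 1 scanner error of the limit. So did VNN1 and CA11 (-1.13 each, siGRB2 against siControl) and VNN1 with miR-376c against siControl (-0.82). SCG5 (-1.20), CA11 (-1.23) and GPA33 (-1.26) did too with miR-376c against miControl. A gene on either side of the limit is therefore not set apart from the others by the count. All 6 members were lower by more than 2 scanner errors in 3 of the comparisons, where 11.5%, 17.1% and 17.3% of probes were (miR-376c against miControl, siGRB2 against siControl and miR-376c against siControl). For siGRB2 against miControl 4 were, without CA11 and GPA33 (5.62% of probes).

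A stricter description is the gap between the lower control and the higher treated array, which is above 0 only where the groups do not overlap. The gap was 1.07 for SCG5, 0.98 for XDH, 0.82 for VNN1, 0.69 for ASGR1, 0.46 for GPA33 and 0.33 for CA11. Of the 21239 probes, 4 had a gap as large as that of SCG5 or larger (SCG5 included), 6 as large as that of XDH, 14 as large as that of VNN1 and 37 as large as that of ASGR1. For GPA33 and CA11 there were 153 and 366, the last being 1.72% of the probes. The members spanned a range, from SCG5, XDH and VNN1 near the end of the distribution to CA11 and GPA33, where siGRB2 and miControl were not apart by more than 2 scanner errors. They were picked for lower levels with both treatments, so these ranks describe the choice and support nothing.

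Within the controls and within the treatments the members fell into 2 sets, a split made after the values were seen. VNN1, XDH and SCG5 were highest with miControl, then siControl, then miR-376c and lowest with siGRB2. CA11, GPA33 and ASGR1 were highest with siControl, then miControl, then siGRB2 and lowest with miR-376c. These orders are by level, and the raw signals of GPA33 and ASGR1 were higher with miControl than with siControl. Not every step of the orders by level exceeded 2 scanner errors. The treated arrays were not apart for VNN1, XDH, SCG5 and ASGR1, the controls not for XDH and SCG5, and miControl and siGRB2 not for CA11 and GPA33.

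The step between the controls, siControl minus miControl, was -0.82 for VNN1, -0.30 for XDH and -0.14 for SCG5, and 0.81 for CA11, 0.50 for GPA33 and 0.53 for ASGR1, beside a median of -0.11 for all probes. The step between the treatments, siGRB2 minus miR-376c, was -0.31 for VNN1, -0.02 for XDH and -0.15 for SCG5, and 0.91, 0.81 and 0.39 for the other set, beside a median of 0.06. Against the mean of both controls, VNN1 was at 42.6% with miR-376c and 34.3% with siGRB2, whereas CA11 was at 32.2% and 60.3%, GPA33 at 35.1% and 61.4% and ASGR1 at 39.4% and 51.5%. XDH was at 45.7% and 45.1% and SCG5 at 45.5% and 40.9%. Over all settings of normalization and background tried, the step between the controls kept its sign for VNN1 (-0.92 to -0.55), XDH (-0.41 to -0.03), CA11 (0.50 to 1.08), GPA33 (0.39 to 0.77) and ASGR1 (0.42 to 0.80), and for SCG5 it ran from -0.24 to 0.13. The step between the treatments was positive for all 6 members under normexp with all spots (0.42 to 3.88), and without the spots of high local background it was 0.01 for XDH and 0.03 for SCG5.

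The likeness of the patterns over the 4 arrays was measured by the root mean square distance between the log2 profiles, each centred on its own mean. The closest members were XDH and SCG5 (distance 0.08), then CA11 and GPA33 (0.12) and GPA33 and ASGR1 (0.15), and the farthest were VNN1 and CA11 (0.73). Among 17435 named probes, XDH and SCG5 were each the nearest profile of the other, followed by FAM224A for XDH (0.11) and LRRC66 for SCG5 (0.14). GPA33 was the second nearest of CA11 after MEI1 (0.10), and CA11 the second nearest of GPA33 after FAM174A (0.10). ASGR1 was nearest to MYH16 (0.05) and CDS1 (0.08), and 43 probes lay within 0.2 of it. VNN1 stood most alone, with MSANTD3-TMEFF1 (0.17), the only probe within 0.2, and the chemokine gene CCL3 (0.23) as its neighbours. With 4 arrays a profile has few values, so a small distance is a description and says nothing of shared control. The members were also picked for a like order of the arrays, which favours small distances between them.

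The genes around the members in their pathways and families did not share the pattern as a group. Of 73 other genes in 6 lists, 70 had a probe and 45 had 1 well above background on all 4 arrays, with 54 such probes. Both treated arrays were below both controls for 7 of the 54 probes (13.0%, beside the 13.6% of all probes) and above them for another 7. At least 2-fold lower levels were found for 0 of the 54 probes with miR-376c against miControl, 0 with siGRB2 against siControl, 2 with miR-376c against siControl and 0 with siGRB2 against miControl, where 0.8%, 2.62%, 2.82% and 0.428% of the probes on all arrays passed. At least 2-fold higher levels were found for 1, 1, 1 and 0 probes in the same order, where 0.532%, 5.62%, 3.06% and 0.659% passed. The shares against siControl moved with the scaling: with a median shift 1660 probes were lower and 433 higher with siGRB2, in place of 556 and 1193, and 1072 and 342 with miR-376c, in place of 598 and 649. The genes named below were chosen by a rule on level and fold, except VNN2, PPCDC, GDA, NT5E, NT5C2, MOCS2, CPE, LY75, CLEC4G and CA9 and the genes given as well above background on no array, which were picked after their values were seen.

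In the pantetheine and coenzyme A list, VNN2, the paralog of VNN1, had log2 levels of -1.18 with miControl, -0.88 with siControl, -1.91 with miR-376c and -1.88 with siGRB2. Both treated arrays were thus below both controls, by -0.73 and -1.03 with miR-376c against miControl and siControl and by -0.70 and -0.9995 with siGRB2. This order was kept under every other setting except normexp with all spots. The paralogs share much sequence, and cross-hybridization between their probes was not tested. PPCDC, a decarboxylase of coenzyme A synthesis, had differences of -0.49 to -0.11. The genes named for their signal were PANK2, which starts coenzyme A synthesis (-0.27 to 0.19), and COASY, which ends it (-0.25 to 0.21), and neither set the treatments apart from the controls.

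Around XDH, the purine salvage enzymes HPRT1 (-0.37 to 0.22) and APRT (-0.0039 to 0.14) were named for their signal and overlapped between groups. A probe of GDA, guanine deaminase, which feeds xanthine to XDH, was below both controls on both treated arrays (-0.60 to -0.10), as was a probe of NT5E, the surface 5′-nucleotidase (-0.35 to -0.01), but GDA lost this order under quantile normalization and NT5E with the percentile over detected probes and under normexp. The other GDA probe was above siControl on both treated arrays (0.21 with miR-376c and 0.39 with siGRB2), and the other NT5E probe was above both controls with miR-376c (0.26 and 0.04). A probe of NT5C2, a cytosolic nucleotidase, and that of MOCS2, of molybdenum cofactor synthesis, were above both controls on both treated arrays (0.0030 to 0.44 and 0.11 to 0.35). These orders were not tested under other settings. The other NT5C2 probe was below both controls with miR-376c (-0.54 against miControl and -0.21 against siControl). With siGRB2 that probe was below miControl (-0.16) and above siControl (0.16). In the prohormone list PCSK2, the client of SCG5, and PCSK1, CHGA, CHGB and SCG3 were well above background on no array. PCSK1N, an inhibitor of PCSK1, differed by -0.19 to 0.02, and the probes of PAM, which amidates peptides, by -0.59 to 0.49. For 1 PAM probe both treated arrays were above both controls (0.16 to 0.49), and for the other they were not. CPE, of the same list, was also above both controls on both treated arrays (0.03 to 0.57).

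Of the other 14 carbonic anhydrase genes, 6 were well above background on all arrays and CA1, CA3, CA4 and CA12 on none. CA14, a membrane-bound isozyme, was below both controls on both treated arrays (-0.57 and -1.05 with miR-376c, -0.37 and -0.85 with siGRB2, each against miControl and siControl in turn), an order that normexp with all spots ended. CA13, a cytosolic isozyme, differed by -0.74 to 0.63, and the hypoxia-responsive CA9 differed between the treatments, with siGRB2 above miR-376c by 1.53. In the family of GPA33, the junction proteins CXADR (2 probes, -0.11 to 0.69) and F11R (2 probes, -0.88 to 0.04) were named for their signal. For 1 F11R probe both treated arrays were below both controls, and for the other they were not. For 1 CXADR probe both treated arrays were above both controls (0.14 to 0.69), and for the other they were not.

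ASGR2, the second subunit of the receptor that ASGR1 forms, went the other way from ASGR1. Its signal was 49.1 with miControl, 26.5 with siControl, 132 with miR-376c and 45.4 with siGRB2, which are log2 levels of -5.77, -6.02, -3.97 and -5.46. It was higher with miR-376c than with either control (1.81 and 2.05), a 2-fold rise over both that 0.254% of probes had, and with siGRB2 the differences were 0.32 and 0.56. Above the higher control it stood 1.76 to 1.90 with miR-376c under the other scalings and 0.82 under normexp. The controls were close to the lowest signal well above background, so the size of this difference is less sure than for ASGR1. The lysosomal enzymes NEU1 (-0.11 to -0.04) and GLB1 (-0.07 to 0.81) of this list had no difference as large as 2-fold. LY75 was slightly above both controls on both treated arrays (0.01 to 0.05). A probe of CLEC4G, an endothelial lectin, passed the limit in a single comparison (1.04, siGRB2 against siControl), where 5.62% of probes were at least 2-fold higher. Its siControl signal, 31.4, was near the lowest signal well above background there (21.5). The other CLEC4G probe was well above background on no array.

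Markers of other cell types were set beside the members that are best known from those cells. Of 8 hepatocyte genes, where ASGR1 is usually found, ALB, APOB, TTR, TF and HNF4A were well above background on no array, SERPINA1 and a probe of APOA1 were on all 4, and CYP3A4 on 2. The summed level of the 9 hepatocyte probes, as a multiple of the 75th percentile, was 4.29 with miControl, 3.55 with siControl, 4.17 with miR-376c and 4.93 with siGRB2, nearly all of it from SERPINA1 (log2 levels of 2.06, 1.80, 2.02 and 2.27 in this order). The cultures were of the HuCCT1 line, so these sums are levels of marker transcripts in that line and not shares of hepatocytes. A link between them and the level of ASGR1 was not tested. Of 5 intestinal genes, where GPA33 is usually found, CDX1, CDX2 and LGALS4 had a probe on all arrays and CDH17 and VIL1 had none on any. Their summed level was 0.35 with miControl, 0.34 with siControl, 0.40 with miR-376c and 0.39 with siGRB2, most of it from 1 CDX1 probe on all arrays. Against siControl the markers did not move together: that probe differed by 0.89 with miR-376c and 0.82 with siGRB2, and CDX2 by -1.02 and -0.89. Against miControl the same probe differed by 0.28 and 0.21, and CDX2 by -0.12 and 0.01. The controls themselves differed, siControl minus miControl, by -0.61 for that CDX1 probe and by 0.90 for CDX2. The other CDX1 probe was well above background on siControl only. Of the other lists, 4 of 6 leukocyte probes (PTPRC, CD14 and CD68) and 1 of 4 fibroblast probes (COL1A1) were well above background on all arrays. The summed leukocyte level was 0.84 to 1.03 on the treated arrays and 0.95 to 1.02 on the controls, and the summed fibroblast level was 0.10 with miR-376c, 0.23 with siGRB2, 0.20 with miControl and 0.15 with siControl.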

How the data were processed

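The authors deposited, for each of the 4 arrays (human 44 K design, 1 slide, 1 scan), spot intensities of Agilent Feature Extraction (10.7.3.1), and a table of log2 values shifted to the 75th percentile. Its columns, with medians of -3.59 to -3.36, equalled the scanner values up to a constant within 0.01 for 100.0% of probes, so its scale and direction are known and its centring is that constant.

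Processed intensities were taken to log2 and the 75th percentile over non-control spots was subtracted (Python 3.11.15, numpy 2.4.6, pandas 2.3.3). Outlier spots (289 to 329 per array) were left out, spots of a probe averaged, and no spot was saturated. A probe was well above background when more than 0.5 of its spots were flagged so. A probe so on 1 array of a comparison entered as a bound. The lowest such signal was 21.2 to 24.4. Probe accessions were named through RefSeq (GRCh38.p14, names only, since the files name another build).

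With 1 array per condition no test was made, and precision is limited by that number. Members and gene lists were chosen with earlier results of these data known. Named genes were the members, GRB2, per list the genes 2-fold from both controls in 1 direction and the 2 highest, and the 2 nearest profiles per member. The calculation was tested on simulated data with changes well past the 2-fold limit. This checks the code and not the counts near the limit. Alternatives were quantile normalization, a median shift, the percentile over detected probes, normexp (offset 50, limma 3.58.1, R 4.3.3, on median intensities), the deposited values, outlier spots kept, detection on all arrays, the mean of both controls, and 1.5-fold and 3-fold limits. A biliary marker of the fixed list is not reported here.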

Additional observations from a re-analysis of the deposited data

How the results depend on the processing

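The 24 differences of the 6 members in the 4 comparisons stayed below 0 under quantile normalization, a median shift, the percentile over detected probes, the deposited log2 values, outlier spots kept and the mean of both controls (-2.20 to -0.33 over these). A median shift moved the median of all probes for siGRB2 against siControl from 0.15 to -0.13 and for siControl against miControl from -0.11 to 0.17, and the members' median in the first from -1.13 to -1.42. The count of members at least 2-fold lower in all 4 comparisons rose from 1 to 2 under quantile normalization, the median shift and the deposited values, and to 4 at a 1.5-fold limit. At a 3-fold limit it was 0, and the counts were 1 for miR-376c against miControl, 0 for siGRB2 against siControl, 3 for miR-376c against siControl and 1 for siGRB2 against miControl. The count for siGRB2 against siControl rose from 4 to 6 under quantile normalization, the median shift and the deposited values, that for miR-376c against siControl from 4 to 5, and that for miR-376c against miControl fell from 6 to 5 under the first pair.

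Background correction by normexp changed most. The counts fell to 2 for miR-376c against miControl, 0 for siGRB2 against siControl, 2 for miR-376c against siControl, 1 for siGRB2 against miControl and 0 for all 4 together, and 1 member (VNN1) was below both controls on both treated arrays. Differences turned positive for siGRB2 against siControl in XDH (0.94), SCG5 (1.89), CA11 (2.44), GPA33 (2.94) and ASGR1 (1.87), and for siGRB2 against miControl in XDH (0.62), SCG5 (1.89), CA11 (2.94), GPA33 (3.44) and ASGR1 (2.41), where the median of all probes also moved to 1.03 and 0.93. Only the siGRB2 array had spots, 7 of them, with a local background over 10 times its median. Without such spots, an alternative chosen after seeing the data, the medians were 0.11 and 0.09, the counts were 2, 1 and 2 for miR-376c against miControl, siGRB2 against siControl and miR-376c against siControl, and 0 for all 4, and GPA33 alone turned positive (0.044, siGRB2 against miControl). The runs with normexp also used an offset of 50 and median spot intensities, and the cause of the remaining lower counts was not tested.

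No paired analysis was possible because the labels give every condition a single array. Signal over background limits GPA33 most, which on the miR-376c array was nearest to the lowest signal well above background.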
